A study of Mus musculus with 4 samples.

Results

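The neutrophil and epithelial alarmins described here are 9 secreted antimicrobial and acute-phase genes, S100a8, S100a9, Lcn2, Saa3, Saa1, Slpi, Camp, Ngp and Ltf, out of 33696 genes counted in 4 single-cell libraries of mouse digit tips. They were chosen by symbol after their transcripts had been seen to gather in few cells, so their distribution over cell classes and the share held by the 5 highest cells of a library are given below as a description, without a test. Each library pooled the distal digits (the P3 digit of the labels) of 10 female C57BL/6 mice, 6 to 8 weeks of age, after amputation of the digit tip. In the first pair, mice ate chow with SAR131675, an inhibitor of the lymphatic growth factor receptor VEGFR3, at 30 mg/kg (labels: for 8 days; methods: from 5 days before amputation) or a matched control diet. In the second pair, the lymph nodes draining 1 hindlimb were removed (lymph node removal, LNR) and the other limb had a sham operation. The SAR131675 pair is placed at 8 days post amputation (DPA) in one place and at 5 DPA in another, and the LNR pair at 8 DPA. The labels name 1 strain and no transgene for all 4 libraries, and each carries a batch number of its own, so that treatment and batch cannot be told apart.

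S100a8 and S100a9 form calprotectin, a heterodimer that makes up much of the neutrophil cytosol, binds calcium and zinc, and is also made by wounded or inflamed keratinocytes. Camp (the cathelicidin precursor), Ngp (neutrophilic granule protein), Ltf (lactoferrin, which binds iron) and Lcn2 (lipocalin 2, which captures bacterial siderophores) are packed into the specific granules of neutrophils and are transcribed mainly at the myelocyte and metamyelocyte stages in bone marrow. Slpi is an inhibitor of neutrophil elastase made by mature neutrophils and by epithelia, and Saa1 and Saa3 are serum amyloid A proteins, of which Saa3 is the form made outside the liver in mice.

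Promoters are shown for the calprotectin pair, for Lcn2 and for the 3 granule genes that stayed together in the same cells. They are the 250 bases before the start of transcription in RefSeq annotation of GRCm38.p6, read 5′ to 3′ on the strand of the gene. The deposited counts used GRCm39, so the coordinates belong to the reference and not to the counted features. Capitals mark TTGCNNAA, a motif of the kind bound by C/EBP factors, searched on both strands. The other motif searched, TATAAA, shared no promoter of a member with it.
S100a8: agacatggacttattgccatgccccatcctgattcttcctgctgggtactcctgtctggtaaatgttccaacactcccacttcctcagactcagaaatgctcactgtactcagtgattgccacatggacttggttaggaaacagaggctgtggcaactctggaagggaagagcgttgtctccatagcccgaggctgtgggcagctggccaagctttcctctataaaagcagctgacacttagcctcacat
S100a9: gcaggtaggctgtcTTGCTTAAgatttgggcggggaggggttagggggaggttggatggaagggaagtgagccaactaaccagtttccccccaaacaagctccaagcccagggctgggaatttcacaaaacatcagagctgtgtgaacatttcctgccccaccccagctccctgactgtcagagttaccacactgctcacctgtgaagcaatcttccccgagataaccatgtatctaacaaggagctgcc
Lcn2: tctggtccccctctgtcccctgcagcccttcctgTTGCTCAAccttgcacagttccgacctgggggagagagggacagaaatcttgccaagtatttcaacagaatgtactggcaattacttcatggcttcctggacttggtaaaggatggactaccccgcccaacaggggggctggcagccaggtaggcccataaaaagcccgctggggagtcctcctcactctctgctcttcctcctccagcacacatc
Camp: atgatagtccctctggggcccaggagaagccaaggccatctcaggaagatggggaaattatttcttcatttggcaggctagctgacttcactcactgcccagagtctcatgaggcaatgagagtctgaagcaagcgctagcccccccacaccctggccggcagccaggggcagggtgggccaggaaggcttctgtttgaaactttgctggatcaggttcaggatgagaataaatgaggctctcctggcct
Ngp: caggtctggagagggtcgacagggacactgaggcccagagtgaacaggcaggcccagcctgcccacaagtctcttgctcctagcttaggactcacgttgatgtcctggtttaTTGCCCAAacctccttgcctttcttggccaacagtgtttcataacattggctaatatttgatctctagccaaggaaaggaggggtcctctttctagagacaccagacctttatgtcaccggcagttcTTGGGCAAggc
Ltf: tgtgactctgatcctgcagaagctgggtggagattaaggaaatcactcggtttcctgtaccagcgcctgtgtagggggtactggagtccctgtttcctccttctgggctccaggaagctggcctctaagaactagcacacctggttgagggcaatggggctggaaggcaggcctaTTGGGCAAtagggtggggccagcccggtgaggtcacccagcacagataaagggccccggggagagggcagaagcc
S100a8 lies at chr3:90668821-90669070 on the plus strand and S100a9, its neighbour, at chr3:90695722-90695971 on the minus strand. Lcn2 lies at chr2:32387740-32387989 on the minus strand. Camp lies at chr9:109849457-109849706 on the minus strand, and Ngp at chr9:110419558-110419807 and Ltf at chr9:111019042-111019291, both on the plus strand. TTGCNNAA was present in 7 of the 9 members, against 3142 of 32851 promoters of the same length (9.56%), and was absent from the windows of S100a8 and Camp. Ngp held it at 2 places, 138 to 131 and 11 to 4 bases before the start. Saa3, Saa1 and Slpi, not printed, held it at 99 to 92, 182 to 175 and 241 to 234 bases before the start. TATAAA was found only in S100a8 among the members, 30 to 25 bases before the start, against 4063 promoters (12.4%). A match describes these letters only.

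Counts are unique molecular identifiers (UMIs), each standing for 1 captured transcript, and levels are given as CPM, a gene's UMIs per 1000000 UMIs of the same cells. Barcodes with 200 to 5500 genes, at most 30000 UMIs and at most 10% mitochondrial UMIs were kept, which left 29076 barcodes with SAR131675, 24030 with control diet, 19827 after LNR and 20669 after sham surgery, called cells below. Median depth was 11316 and 10712 UMIs per cell in the SAR131675 pair and 5725 and 5851 in the LNR pair, so the pairs are not compared with each other in any test. Libraries of a pair shared 210 and 101 barcodes, and 0 to 2 were shared across pairs. Each pair was clustered alone without the 9 genes, and clusters were named only from marker lists, so "neutrophil-like" or "lymphatic endothelial-like" (LEC-like) rests on those markers. In the neutrophil-like class, named from them, 11 of 11 neutrophil markers were detected in each library. They summed to 15312 to 18895 CPM there, against 31.1 to 64.3 CPM in keratinocyte-like cells, where Il1r2 alone was at 28.5 to 63.0 CPM. The 9 strictest markers, which leave out Il1r2 and Cxcr2, summed to 13299 to 16488 CPM, against 0.444 to 1.92 CPM in keratinocyte-like cells. The low keratinocyte-like sum of the 9 thus follows in part from leaving out Il1r2. Brackets give 95% intervals that cover counting error only, with 1 library per condition and no replicate, so no p-value is given.

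**Figure D1:**
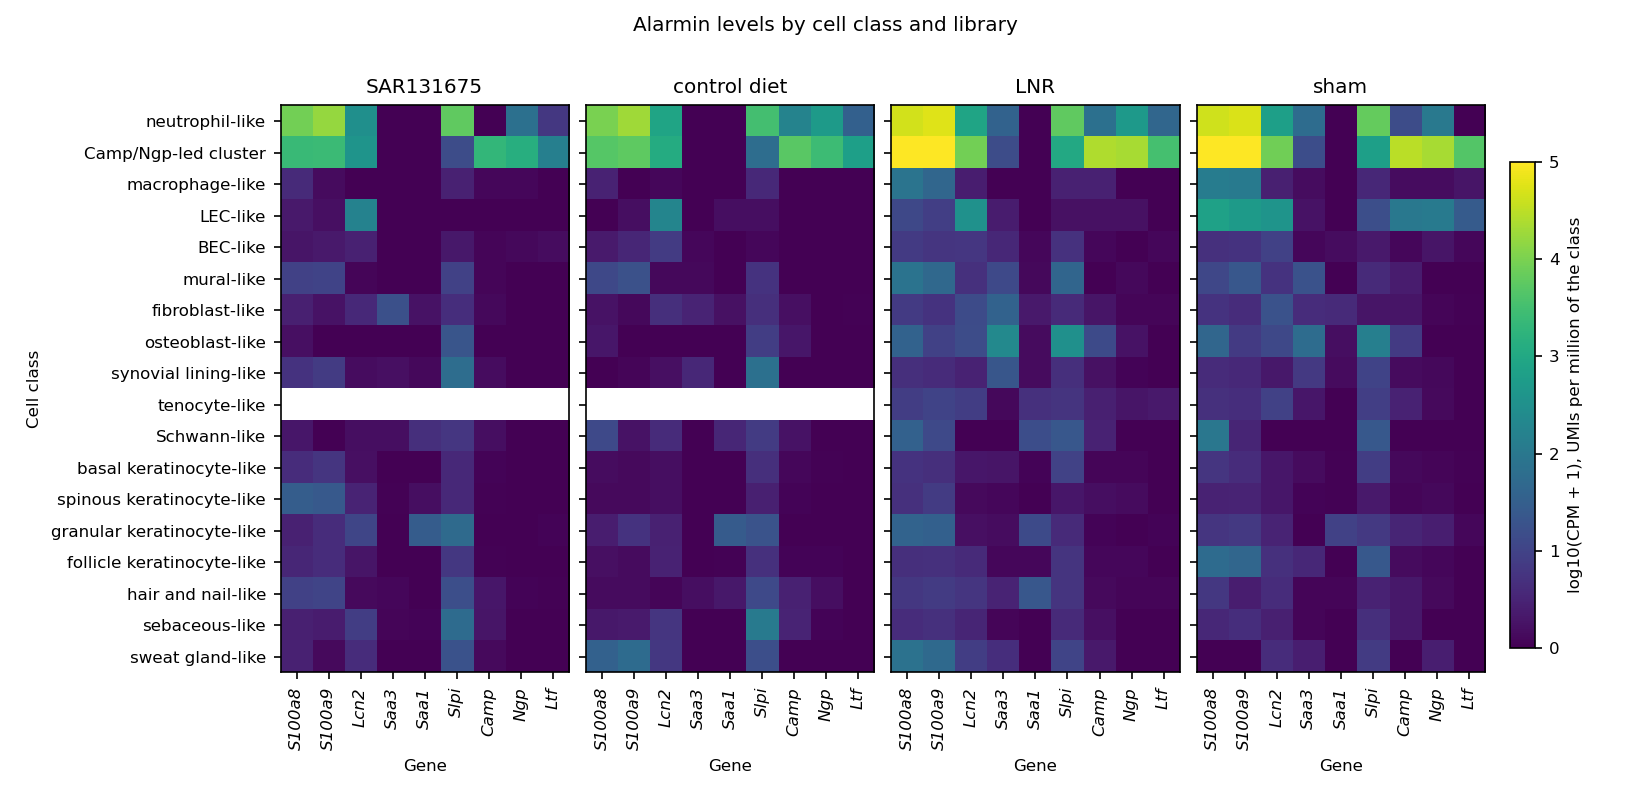
Level of the 9 alarmins (columns) in each cell class (rows) of the 4 libraries, as a colour scale of log10(CPM + 1); a class that a pair lacks is blank. S100a8 and S100a9 are highest in the neutrophil-like class and the Camp/Ngp-led cluster in all 4 panels, Lcn2 is also high in LEC-like cells, and Camp, Ngp and Ltf are high in the Camp/Ngp-led cluster. That cluster was picked by alarmins among its leading genes.

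S100a8 and S100a9 were the most abundant alarmins, and few cells held most of them. S100a8 amounted to 9486 UMIs (27.9 CPM) in the SAR131675 library, 5796 (21.8 CPM) in the control diet library, 55628 (389 CPM) with LNR and 50656 (336 CPM) with sham. S100a9 amounted to 37.8, 33.6, 408 and 321 CPM in the same order. Both genes were higher in either library of the LNR pair than in either of the SAR131675 pair, and depth, batch and treatment also differed between pairs, so the part of each was not tested.

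The number of cells behind these totals was small. Of S100a8 UMIs, 35.7% in the SAR131675 library, 53.6% in the control diet library, 22.6% after LNR and 16.6% after sham surgery lay in 5 cells, and 15, 5, 21 and 21 cells, respectively, were enough for 50% of them. Camp, Ngp and Ltf were still more concentrated in the SAR131675 pair, where 5 cells held 95.8% to 99.1% of each, against 28.3% to 49.4% in the LNR pair. Without cells that Scrublet called doublets, Camp's share in 5 cells was 12.9% with SAR131675, 37.2% with control diet, 49.6% with LNR and 41.0% with sham. Cells with 10 or more Camp UMIs held 95.8% and 97.1% of Camp in the SAR131675 pair, and Scrublet called 2 of 2 and 4 of 5 of them. The shares of that pair thus rest on the few Camp UMIs left and cannot decide the contrast. Ngp and Ltf were not run in this way. Slpi was spread most widely, with 8.57% to 13.3% in 5 cells. Saa3, an acute-phase protein, had 79.2%, 71.6%, 51.7% and 46.4% in 5 cells.

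**Figure D2:**
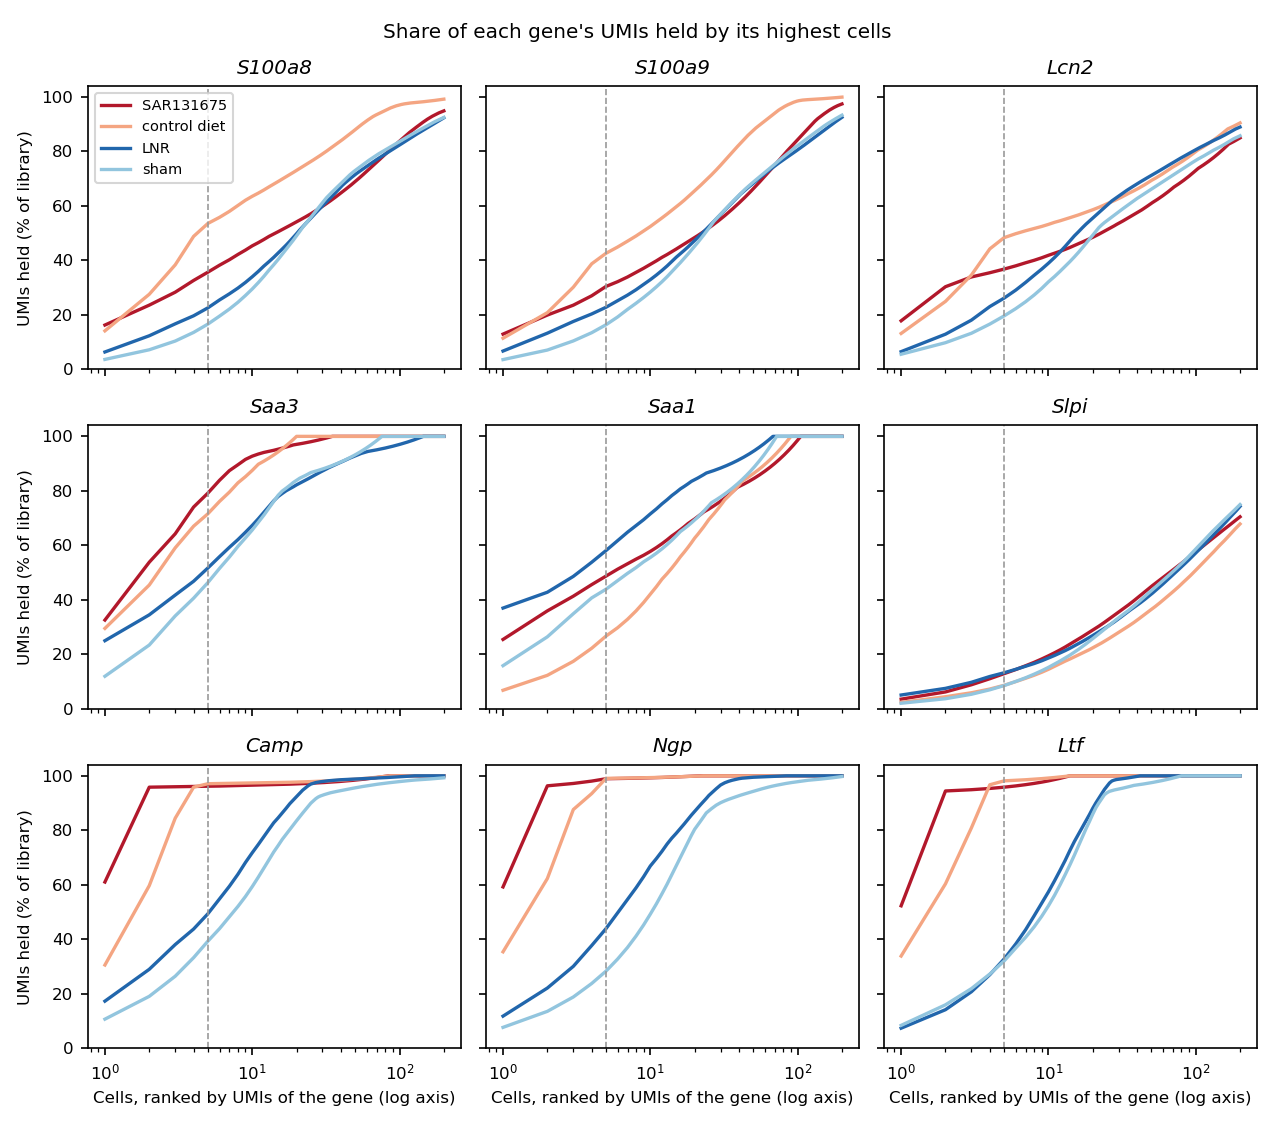
Share of each gene's UMIs (vertical axis, percent) held by its highest cells, against the number of cells (horizontal axis, log scale), with a line per library and a dashed line at 5 cells. At 5 cells, Camp, Ngp and Ltf are above 95% in the SAR131675 pair and below 50% in the LNR pair, whereas Slpi is below 15% in all 4 libraries; without Scrublet doublets the Camp share is 12.9%, 37.2%, 49.6% and 41.0%.

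Neutrophil-like cells had the highest level of calprotectin of any class in the SAR131675 pair and the second highest in the LNR pair, and the highest level of Slpi in all 4 libraries. S100a8 reached 8480 CPM [8186, 8781] in 144 SAR131675 cells, 9780 CPM [9361, 10214] in 79 control diet cells, 46271 CPM [45479, 47074] in 217 LNR cells and 44351 CPM [43483, 45232] in 179 sham cells. S100a9 reached 16182, 19469, 56082 and 51884 CPM. A UMI of S100a8 was found in 94.4%, 94.9%, 96.8% and 98.3% of these cells at median depths of 2457, 2422, 1119 and 1086 UMIs. In fibroblast-like cells, which were deeper (medians 11286.5, 10303, 3938 and 3857 UMIs), it was found in 1.82%, 0.792%, 2.45% and 1.76%. The neutrophil-like class nevertheless held only 33.2%, 35.2%, 23.4% and 19.6% of a library's S100a8, and the cluster described next held 16.7%, 38.4%, 52.2% and 54.2%. When single cells were named by their own markers, without clusters, neutrophil-like cells held 62.8%, 84.2%, 66.3% and 58.1%.

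Cells with transcripts of specific granules stood apart from the neutrophil-like class. A cluster with no cell type name, led by Camp and Ngp, held 52.2% (LNR, 29 cells) and 54.2% (sham, 35 cells) of the S100a8 of its library. This cluster was picked because at least 3 alarmins were among its 10 leading genes. Its high alarmin levels and its share of S100a8 thus follow in part from that rule. Its S100a8 level was 132448 and 129798 CPM, and S100a9 was at 132366 and 116156 CPM. Camp was at 25062 and 30172 CPM, Ngp at 22085 and 22042 CPM and Ltf at 3428 and 4670 CPM. These 3 granule genes were within 2-fold between the LNR and sham libraries in this cluster, and 7 of 7 members with 50 or more UMIs there were, at log2 ratios from -0.45 for Ltf to 0.64 for Slpi. The share of all genes within 2-fold was not counted in this cluster, so the count of members cannot be set against it.

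In the SAR131675 pair the corresponding cluster held 53 and 37 cells, but its median S100a8 count was 0 in both libraries, against 789 in the LNR and 772 in the sham cells. Nearly all of its S100a8, Camp, Ngp, Ltf and Lcn2 lay in 1 SAR131675 cell and 3 control diet cells, with a S100a8 UMI in 2 and 3 cells of the cluster, so the cluster's name describes few of its cells there. The SAR131675 cell, with 16414 UMIs, had 1546 of S100a8, 1668 of S100a9, 1319 of Camp, 888 of Ngp, 254 of Lcn2 and 91 of Ltf. The control diet cells had 867, 825 and 701 Camp UMIs. Monocyte-like cells, named in this pair alone, had S100a8 at 1108 and 1289 CPM, of which 1 cell held 693 of 711 and 606 of 612 UMIs. Mki67, a proliferation gene, had 23 UMIs in the SAR131675 cell of the Camp/Ngp-led cluster and 19, 14 and 21 in the control diet cells, and was at 0 in the other 3 cells of the pair with 10 or more Camp UMIs, which were monocyte-like or neutrophil-like.

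Granule transcripts were next followed in all cells with 10 or more Camp UMIs, whatever their cluster, a limit set with the values known. There were 2 such cells in the SAR131675 library, 5 in the control diet library, 28 with LNR and 43 with sham. They held 94.9% to 97.7% of Camp, 92.4% to 99.1% of Ngp and 94.4% to 98.2% of Ltf. They also held 23.6%, 53.6%, 55.9% and 61.2% of S100a8 and 30.4%, 48.4%, 58.2% and 57.2% of Lcn2. The 9 alarmins made up a median of 34.5%, 26.4%, 43.0% and 33.4% of all UMIs in these cells. Primary granule transcripts accompanied them in the LNR pair, where Mpo, myeloperoxidase, was at 330 and 292 CPM, Elane, neutrophil elastase, at 1350 and 781 CPM and Prtn3, proteinase 3, at 1234 and 659 CPM. In the 2 and 5 cells of the SAR131675 pair Mpo was at 0 and 0, Elane at 0 and 123 CPM and Prtn3 at 38.7 and 185 CPM, with all 6 Elane and all 9 Prtn3 UMIs of the control diet library's 5 cells in 1 cell. The Camp/Ngp-led cluster of this pair, where 1 of 53 and 3 of 37 cells had a Camp UMI, had Mpo at 28.9 and 0 CPM, Elane at 111 and 13.1 CPM and Prtn3 at 151 and 21.8 CPM, higher in the SAR131675 library. Over all kept cells Elane was 2-fold higher with SAR131675 at 2.23 [1.37, 3.20] (1 of 2 primary granule genes tested, against 1.02% of genes higher and 0.66% lower). The Scrublet doublet caller marked 2 of 2, 4 of 5, 0 of 28 and 5 of 43 of the cells with 10 or more Camp UMIs, and the part of doublets in the SAR131675 pair was not tested.

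Neutrophil-like cells with fewer than 10 Camp UMIs had less of the granule genes and more Slpi. In them Camp was at 0, 0, 7.18 and 13.4 CPM and Ltf at 5.38, 0, 3.59 and 0 CPM in the SAR131675, control diet, LNR and sham libraries, whereas Slpi was at 5921, 3194, 6032 and 6721 CPM. Ngp and Lcn2 were not absent from them, at 70.0, 9.81, 355 and 103 CPM and at 307, 530, 797 and 674 CPM. In the cells with 10 or more Camp UMIs, Slpi was at 155, 966, 750 and 227 CPM. Ngp was at 55898, 37163, 22837 and 13940 CPM there and Lcn2 at 16723, 15716, 9419 and 4916 CPM. Cebpe, the factor required for secondary granules, was at 210 and 203 CPM in the Camp/Ngp-led cluster of the LNR and sham libraries and at 14.2 and 13.4 CPM in neutrophil-like cells. Il1b, the inflammatory cytokine, went the other way in these libraries, at 14377 and 14375 CPM in neutrophil-like cells and 383 and 515 CPM in the Camp/Ngp-led cluster. Since Camp set these groups, their contrast in Camp is not a finding, and the other granule genes were read in the same cells.

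Within neutrophil-like cells, calprotectin differed by less than 2-fold inside a pair and Lcn2 was lower with SAR131675 than with control diet. Per cell, the median S100a8 share was 62.4 and 82.1 UMIs per 10000 in the SAR131675 and control diet libraries and 320 and 330 in the LNR and sham libraries. The proportion of S100a9 among calprotectin UMIs was 65.6% [64.6, 66.6] in SAR131675 neutrophil-like cells. Lcn2 stood at 307, 828, 840 and 674 CPM, with a UMI in 45, 33, 70 and 50 cells. Between 0% and 1.75% of these Lcn2 UMIs lay in a cell without S100a8. In the control diet library 1 cell of 5051 UMIs, with 36 Camp, 107 Ngp and 69 Retnlg UMIs, held 65 of the 173 Lcn2 UMIs of the class.

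Lcn2 had a further source, LEC-like cells, in which it was high in all 4 libraries, whereas a single sham cell held nearly all the calprotectin and granule transcripts of the class. LEC-like cells had 164 CPM [145, 184] in the SAR131675 library, 187 CPM [167, 208] in the control diet library, 343 CPM [314, 375] with LNR and 385 CPM [353, 420] with sham. Blood endothelial-like (BEC-like) cells of the same libraries had 1.85, 6.26, 5.27 and 8.26 CPM, and fibroblast-like cells had 2.75, 3.64, 12.7 and 17.0 CPM. No BEC-like or fibroblast-like interval reached that of the LEC-like cells. With 236 to 263 cells per library, the class held 19.2%, 20.9%, 13.1% and 15.1% of all Lcn2.

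A UMI of Lcn2 was present in 45.0% of LEC-like cells with SAR131675 (113 of 251), 48.7% with control diet (128 of 263), 63.2% with LNR (151 of 239) and 54.2% with sham (128 of 236), at median depths of 5197, 5318, 3818 and 3977.5 UMIs. In BEC-like cells the shares were 1.53%, 2.95%, 2.23% and 2.94% at median depths of 8230, 6665, 4383.5 and 3979 UMIs. Thinned to 1500 UMIs in each cell, which left out 22, 30, 45 and 42 shallower LEC-like cells, the shares were 17.9%, 24.03%, 37.6% and 34.0%, against 0.454% to 1.49% in BEC-like cells. The gap between the endothelial classes was thus present at equal depth. No cell carried the gene alone, since the highest LEC-like cell had 10, 12, 16 and 53 UMIs.

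S100a8 in these LEC-like cells was at 1.199, 0, 11.1 and 732 CPM. The sham value came from 1 cell of 16369 UMIs with 972 of the 988 S100a8 UMIs of the class, together with 664 of S100a9, 132 of Camp, 150 of Ngp and 53 of Lcn2. This cell also had 7 UMIs each of Prox1 and Mmrn1, which mark lymphatic endothelium, and 7 of Ptprc, which marks leukocytes. Of the Lcn2 UMIs in LEC-like cells, 100%, 100%, 96.4% and 81.0% lay in cells without a S100a8 UMI. Without the 5 highest cells Lcn2 was at 144, 169, 315 and 305 CPM.

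LEC-like cells with an Lcn2 UMI were deeper than those without one, with medians of 6415 against 4064.5 UMIs in the SAR131675 library, 6543.5 against 3390 in the control diet library, 5632 against 2052 with LNR and 5764 against 2125.5 with sham. In CPM they had more Mmrn1, an extracellular matrix protein of lymphatic endothelium, at 2576 against 1721, 2701 against 1586, 2115 against 1141 and 1977 against 1725 CPM. Ccl21a, the chemokine that draws dendritic cells into lymphatics, was higher in them as well, at 16126 against 8999, 15919 against 6241, 9832 against 7660 and 8853 against 7423 CPM. Prox1, the lymphatic master regulator, was lower in them with LNR and higher in the other libraries, at 1243 against 1196, 1108 against 898, 467 against 509 and 551 against 475 CPM. Lyve1, a hyaluronan receptor, was at 2498 against 1310, 2683 against 1526, 1101 against 873 and, lower in sham, 1074 against 1310 CPM. Nts, the neurotensin gene, was lower in 3 libraries, at 361 against 389, 136 against 441 and 300.04 against 601 CPM, and higher in sham, at 344 against 302 CPM. The part of depth in the split was not tested. Slc22a17, a receptor for lipocalin 2, was at 7.20, 7.35, 6.25 and 3.70 CPM in LEC-like cells.

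**Figure D3:**
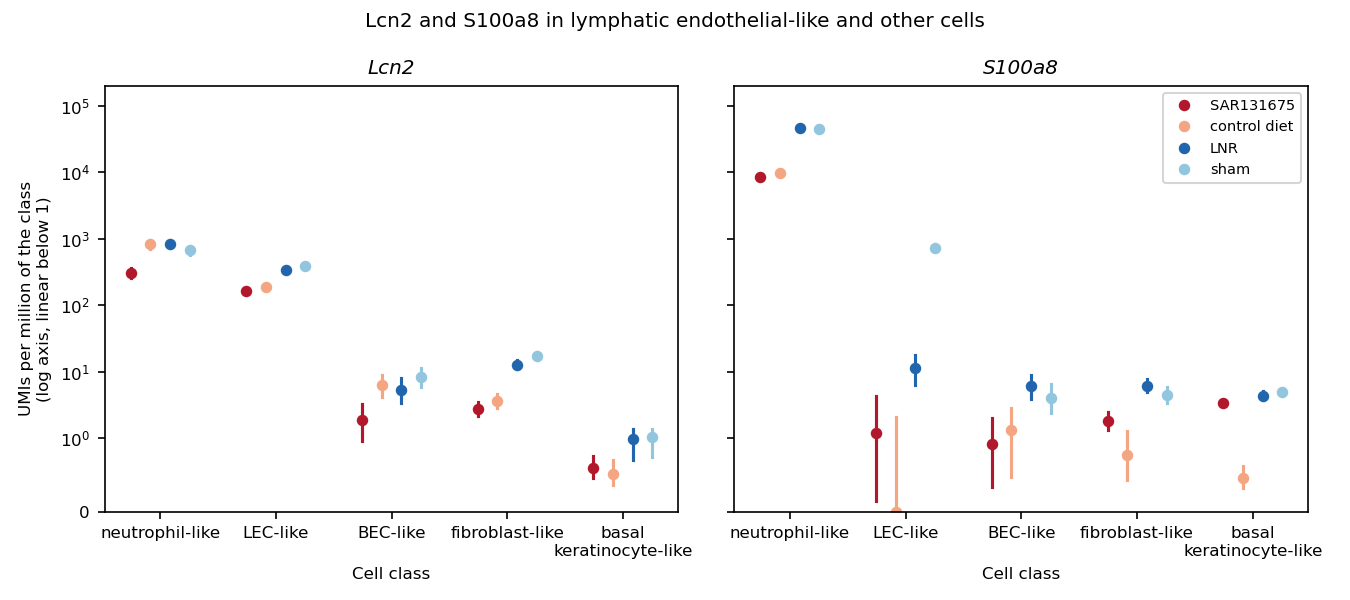
Lcn2 (left) and S100a8 (right) in CPM of the class (vertical axis, log scale, linear below 1) in neutrophil-like, LEC-like, BEC-like, fibroblast-like and basal keratinocyte-like cells, with a point per library and bars for 95% Poisson intervals. Lcn2 in LEC-like cells lies between 164 and 385 CPM, above BEC-like cells at 1.85 to 8.26 CPM, and S100a8 in LEC-like cells is high only in the sham library, from 1 cell.

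Between the libraries of a pair, Lcn2 in LEC-like cells differed less than 2-fold. The log2 ratio was -0.19 [-0.43, 0.05] for SAR131675 over control diet and -0.17 [-0.35, 0.01] for LNR over sham, and both intervals included 0. With 1 library per condition, variation between animals is not in these intervals.

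Keratinocyte-like cells of the SAR131675 library held 29.1% of its S100a8, against 1.54% in the control diet library. The 4 keratinocyte-like classes (basal, spinous, granular and follicle) had 2757 S100a8 UMIs in 17160 cells (12.3 CPM) with SAR131675 and 89 UMIs in 14566 cells (0.482 CPM) with control diet, a log2 ratio of 4.67 [4.37, 4.99]. S100a9 levels of 11.6 and 0.568 CPM gave 4.36 [4.07, 4.65], and Lcn2 differed by 1.06 [0.76, 1.36], with 334 against 132 UMIs. In the LNR and sham libraries S100a8 in these cells was at 8.27 and 7.30 CPM, or 1.012% and 1.08% of the library. Spinous-like cells carried most of the SAR131675 signal at 28.8 CPM, against 0.358 CPM with control diet, 3.88 CPM with LNR and 2.03 CPM with sham.

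These transcripts sat in few cells. Only 240 (1.399%), 61 (0.419%), 177 (2.41%) and 209 (2.45%) keratinocyte-like cells of the SAR131675, control diet, LNR and sham libraries had a S100a8 UMI, at median depths of 12671, 12295, 8126.5 and 7847. The shares lay below those in fibroblast-like cells with SAR131675, control diet and LNR and above the fibroblast-like 1.76% with sham. Cells with 100 or more S100a8 UMIs were another matter, and numbered 7 in the SAR131675 library, 0 in the control diet library and 1 in each of the LNR and sham libraries. The 7 cells held 68.0% of the keratinocyte-like S100a8 of their library, and a further 16 cells with 10 to 99 UMIs held 21.2%.

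The 7 SAR131675 cells had 450, 409, 288, 243, 190, 184 and 110 S100a8 UMIs, and 0, 0, 1, 0, 0, 0 and 1 UMIs of the 11 neutrophil markers. Retnlg and Csf3r, both abundant in neutrophils, were at 0 in all 7, and Scrublet marked 0 of 7. The highest had 440 S100a9 UMIs in a cell of 8657 UMIs. Another, with 409, had 108 UMIs of Krt6a, 267 of Krt16 and 141 of Krt17, keratins of wounded epidermis. The basal-like cell with 190 had 466 S100a9 UMIs and 117 of Krt5, the basal keratin. The calprotectin of SAR131675 keratinocyte-like cells was 48.6% S100a9 [47.3, 49.97], against 65.6% in neutrophil-like cells, 51.7% in the Camp/Ngp-led cluster and 59.0% in basal-like keratinocytes of the same library. The share in that cluster came almost wholly from the 1 cell described above, and the basal-like share rests on the cell with 190, which held 466 of the 550 S100a9 UMIs of its class.

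The highest cell of the sham library, with 208 S100a8 and 161 S100a9 UMIs in 8509, was follicle-like, had 0 neutrophil-marker UMIs, 252 of Krt6a, 309 of Krt16 and 78 of Slpi. The highest LNR cell, with 258 S100a8 UMIs, instead had 42 neutrophil-marker UMIs, 28 of them Retnlg, beside 327 of the suprabasal keratin Krt10. In the control diet library the highest cell had 11 S100a8 UMIs and 52 of neutrophil markers. Calprotectin in keratinocyte-like cells was therefore found with neutrophil transcripts in the highest LNR and control diet cells and without them in the highest SAR131675 and sham cells.

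**Figure D4:**
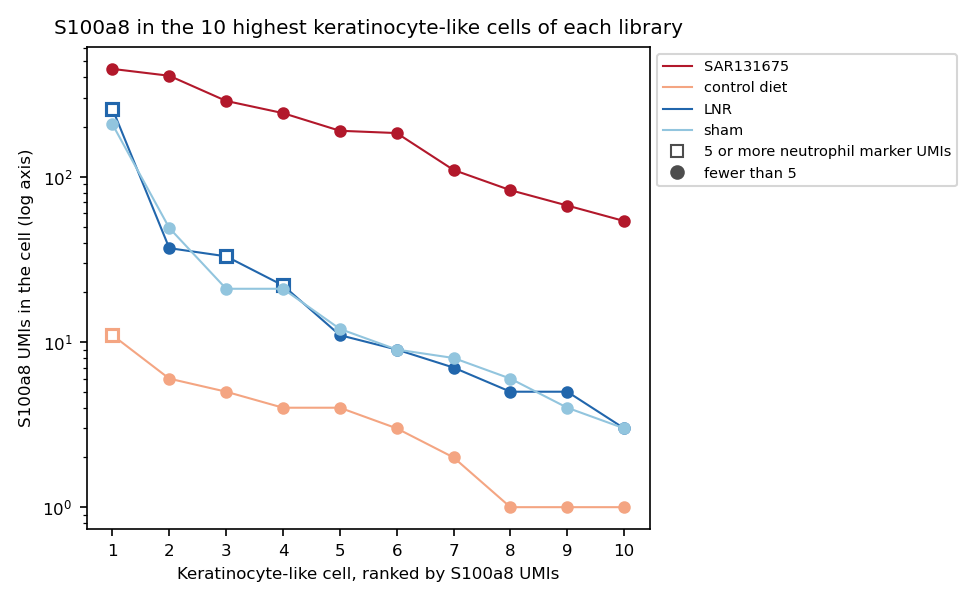
S100a8 UMIs (vertical axis, log scale) in the 10 highest keratinocyte-like cells of each library (horizontal axis, rank), with open squares for cells that had 5 or more neutrophil-marker UMIs. The 7 highest SAR131675 cells lie between 450 and 110 and are all filled, and the highest control diet cell, an open square, lies at 11.

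The wound keratinocyte list (Krt6a, Krt6b, Krt16, Krt17, Sprr1a, Sprr1b, Sprr2d and Sprr2h) was higher in SAR131675, control diet and sham keratinocyte-like cells with more S100a8, whereas in the LNR library it was lowest above 9 UMIs. In the SAR131675 library it summed to 1575 CPM in cells with no S100a8 UMI, 3362 CPM with 1 to 9, 3768 CPM with 10 to 99 and 9563 CPM with 100 or more. Of the 7 highest cells Krt6a was at 0 in 4. The control diet library had 1311 CPM with none, 4326 CPM with 1 to 9 and 16822 CPM with 10 to 99, the last from 1 cell, and no cell above that. In that cell neutrophil markers were at 2659 CPM, Krt17 was at 12885 CPM and Krt6a, Krt6b and Krt16 were at 0. The same groups of cells had 1604, 4134, 718 and 314 CPM in the LNR library, the last from 1 cell, and 1589, 3217, 22124 and 103890 CPM in the sham library, the last also from 1 cell. Neutrophil markers summed to 30.2, 28.0, 371 and 2639 CPM in the LNR groups and 33.4, 39.6, 11.9 and 0 CPM in the sham groups. Such a marker was found in 3 of 4 LNR cells with 10 to 99 UMIs and in the 1 cell above. The part of neutrophil transcripts in the low LNR values was not tested. In the SAR131675 library the neutrophil markers summed to 64.1, 74.9, 58.0 and 12.04 CPM in the same order, and Il1r2, which keratinocytes also express, made up 63.0 of 64.3 CPM over all SAR131675 keratinocyte-like cells. Median depth rose over these groups from 12647 to 15139, 17872 and 27846 UMIs, and its part was not tested.

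The serum amyloid genes were found in stromal and cornifying cells, and Saa3 also in a few immune cells. It was at 0, 0, 35.6 and 58.0 CPM in neutrophil-like cells, from 0, 0, 3 and 3 cells, and at 81.2 CPM in an unnamed immune cluster of 63 SAR131675 cells. Nearly all Saa3 of that cluster lay in 1 cell with 53 UMIs, Scrublet marked 48 of the 63 cells, and its control diet cells had 0. Saa3 in fibroblast-like cells was at 15.4 CPM [13.8, 17.1] in the SAR131675 library, 2.10 CPM [1.51, 2.85] in the control diet library, 35.8 CPM [32.6, 39.2] with LNR and 3.37 CPM [2.41, 4.59] with sham. It was thus higher in both treated libraries, by log2 ratios of 2.87 [2.41, 3.38] and 3.41 [2.94, 3.91], but from 12, 6, 24 and 15 cells. In the LNR library 1 fibroblast-like cell of 4615 UMIs had 380 of Saa3, or 8.23% of its UMIs, and in the SAR131675 library 2 cells had 166 and 108. Without the 5 highest cells the class was at 0.991, 0.0514, 2.60 and 0.844 CPM.

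Osteoblast-like cells had Saa3 in the LNR pair alone, at 221 CPM in the LNR library from 25 of 355 cells and 56.8 CPM in the sham library from 7 of 265 cells, and it was at 0 in 193 and 110 cells of the SAR131675 pair, where the limit of 3 counts lies at 1.78 and 3.08 CPM. Without the 5 highest cells the levels were 59.2 and 1.69 CPM. Slpi was also high in osteoblast-like cells of that pair, at 326 and 142 CPM against 20.2 and 7.18 CPM in the SAR131675 pair. A single LNR cell had 259 Slpi and 110 Saa3 UMIs.

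Among named classes, Saa1 was highest in granular keratinocyte-like cells, the last living layer of the epidermis, in all libraries but LNR, where single cells raised 2 other classes above them. Unnamed clusters stood higher than the granular cells in the LNR library (16.9, 32.1 and 34.4 CPM) and the sham library (9.34 and 26.8 CPM). The 16.9 CPM came from 2 UMIs in a cluster of 6 LNR cells, under the limit of 3 counts. Saa1 in the granular cells was at 27.8, 26.3, 12.5 and 8.31 CPM in the SAR131675, control diet, LNR and sham libraries. They held 60.3%, 85.6%, 31.8% and 39.2% of a library's Saa1, in 30, 57, 21 and 24 cells. In the LNR library a further 37.3% lay in hair and nail-like cells, of which 121 of 122 UMIs were in 1 cell of 26878 UMIs, and 7 UMIs in 1 of 158 Schwann-like cells gave that class 14.0 CPM. Fibroblast-like cells had a Saa1 UMI in 0.431% to 0.767% of cells and granular keratinocyte-like cells in 4.09% to 9.44%, at median depths of 3857 to 11286.5 and 15383 to 19369 UMIs.

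Among other named classes, Slpi was found in sebaceous and joint lining cells of the SAR131675 pair. It was at 54.8 and 110 CPM in sebaceous-like cells and 60.0 and 69.8 CPM in synovial lining-like cells there, and at 2.89 and 3.75 and at 3.76 and 8.97 CPM in the same classes of the LNR pair. In SAR131675 granular keratinocyte-like cells it was at 51.9 CPM, of which 1 cell held 194 of 398 UMIs. Sweat gland-like cells had 17.0 and 15.1 CPM in the SAR131675 pair. Clusters without a cell type name had Slpi as well, such as an immune cluster at 269 and 240 CPM in the SAR131675 pair, an immune cluster at 439 and 561 CPM in the LNR pair and a larger cluster of that pair, of 328 and 331 cells, at 137 and 146 CPM. Scrublet marked 48 of 63 and 45 of 52 cells of the first, 1 of 135 and 3 of 75 of the second and 6 and 4 of the third. The 9 strictest neutrophil markers were at 768 and 596 CPM in the first, 797 and 659 CPM in the second and 0.828 and 0 CPM in the third. Neutrophil-like cells held 40.7%, 20.6%, 33.1% and 32.0% of a library's Slpi.

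Over all kept cells, SAR131675 and control diet differed at least 2-fold in 2 of the 9 alarmins, each tested with 50 or more UMIs in the pair. Saa3 was higher by a log2 ratio of 2.18 [1.85, 2.52], and Ltf was lower at -1.53 [-1.76, -1.29]. Of all genes tested, 1.02% were at least 2-fold higher and 0.66% at least 2-fold lower. The other 7 ranged from -0.74 [-0.83, -0.66] for Camp to 0.39 [0.33, 0.46] for Slpi, with S100a8 at 0.36 [0.31, 0.40] and S100a9 at 0.17 [0.13, 0.21]. The median of the 9 was -0.08, against -0.013 for 20601 genes. Since 5 cells held over 95% of Camp, Ngp and Ltf in each of these libraries, their ratios compare 2 cells with 5, and without the 5 highest cells of a gene in each library 1 member was 2-fold apart, Saa3, at 1.73.

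In neutrophil-like cells 0 of 5 tested members were 2-fold higher with SAR131675 and 2 were lower, where 2.21% and 2.85% of 1718 genes were. Lcn2 was at -1.43 [-1.79, -1.08] and Ngp at -2.90 [-3.58, -2.27], from 26 against 109 UMIs, of which 107 lay in the 1 control diet cell with Camp described above. Without the 5 highest Lcn2 cells of each library Lcn2 was at -0.79. Among those cells only a control diet cell, with 65 Lcn2 UMIs, was neutrophil-like, so no SAR131675 cell of the class was removed. Slpi was at 0.90 [0.77, 1.02], just under the limit, S100a8 at -0.21 [-0.29, -0.12] and S100a9 at -0.27 [-0.32, -0.21]. The median of the 5 was -0.27, against -0.024 for all genes tested.

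In keratinocyte-like cells 3 of 6 tested members were 2-fold higher with SAR131675 (S100a8, S100a9 and Lcn2) and 0 were lower, against 0.992% and 0.662% of 17532 genes. The median of the 6 was 0.71, against -0.0097 for all genes tested. Without the 5 highest S100a8 cells of each library, of which only SAR131675 cells were keratinocyte-like, S100a8 was still apart at 3.90. Without the 5 highest keratinocyte-like cells of each library S100a9 was at 3.796 against 0.303 CPM and Lcn2 at 0.932 against 0.504 CPM, less than 2-fold apart. Lcn2 did not go one way in all keratinocyte-like classes. Its log2 ratio was 0.21 [-0.37, 0.81] in basal-like, 2.06 [1.55, 2.61] in spinous-like, 2.42 [1.67, 3.25] in granular-like and -1.10 [-1.94, -0.28] in follicle-like cells, the granular-like value from 4 and 3 cells, with 51 of 78 SAR131675 UMIs in 1 cell. Saa1, Slpi and Camp were at -0.26 [-0.52, -0.01], 0.36 [0.22, 0.51] and -0.79 [-1.67, 0.06].

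LNR and sham differed at least 2-fold in 1 of 9 alarmins over all kept cells, Saa3, at 2.06 [1.90, 2.22], where 0.402% of 17394 genes were higher and 0.397% lower. Saa1 was at 0.87 [0.60, 1.13], S100a9 at 0.35 [0.33, 0.37], S100a8 at 0.21 [0.19, 0.23], Lcn2 at 0.21 [0.14, 0.28] and Slpi at 0.19 [0.13, 0.24]. The granule genes were at -0.37 [-0.42, -0.33] for Camp, 0.0061 [-0.046, 0.058] for Ngp and -0.24 [-0.37, -0.12] for Ltf. The median of the 9 was 0.21, against 0.021 for all genes tested. An alternative chosen after seeing the data left out cells outside the neutrophil-like class that held one of the 9 strictest neutrophil markers. Under it 4 of 9 were 2-fold apart, with Camp at -2.78 and Ltf at -1.57. Among cells with 10 or more Camp UMIs, such a marker was found in 28 of 28 with LNR and 35 of 43 with sham. The removal thus fell unequally on these cells. The Camp and Ltf ratios under it cannot separate this from a difference between the libraries.

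In neutrophil-like cells 1 of 5 tested members, Ngp, was 2-fold higher with LNR at 2.30 [1.66, 3.00], from 142 against 23 UMIs in 14 and 11 cells, and 0 were lower, against 0.407% and 1.55% of 1228 genes. S100a8 was at 0.061 [0.023, 0.099] and S100a9 at 0.11 [0.08, 0.15]. In keratinocyte-like cells 0 of 7 tested members were 2-fold higher or lower, against 0.339% and 0.205% of 14156 genes, with S100a8 at 0.18 [0.01, 0.35] and Lcn2 at -0.56 [-1.04, -0.08]. The S100a8 ratio of these cells turned to -1.04 under the same alternative.

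**Figure D5:**
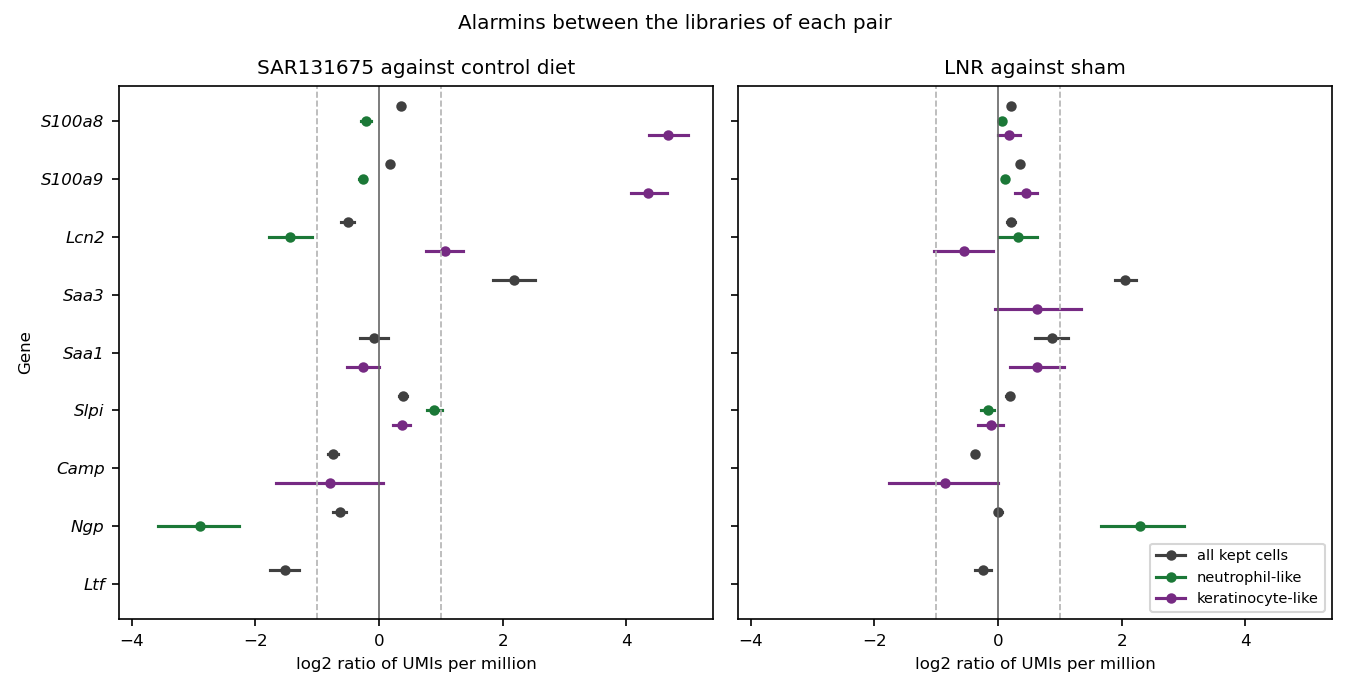
Log2 ratio of CPM (horizontal axis) of each alarmin with 50 or more UMIs in the pair (rows), for SAR131675 over control diet and for LNR over sham, in all kept, neutrophil-like and keratinocyte-like cells, with 95% counting intervals and dashed lines at 2-fold. S100a8 and S100a9 in keratinocyte-like cells lie at 4.67 and 4.36 in the SAR131675 pair and inside the dashed lines in the LNR pair, and Saa3 over all kept cells lies beyond 2-fold in both.

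Other genes of the same pathways, from lists of granule, wound, antimicrobial, receptor and inducer genes of which 64 of 66 were found in the files, moved in small numbers. In keratinocyte-like cells with SAR131675, 2 of 8 epithelial antimicrobial genes were 2-fold higher, S100a7a at 1.62 [1.03, 2.25], a psoriasin-like S100 protein, and Defb3, a beta-defensin, at 1.33 [0.92, 1.76], against 0.992% of genes higher and 0.662% lower. Of 13 inducers and regulators tested, Tnf was 2-fold higher at 1.11, and of 2 granule genes Mmp9 was, at 1.78. The 8 wound keratins and cornified envelope genes and the 9 receptors tested had no member 2-fold apart, with a median of 0.28 for the wound list. In spinous-like cells alone 5 of 8 wound genes were 2-fold higher with SAR131675 (against 0.664% of 14311 genes higher and 0.489% lower). The median was 1.26, with Krt6a at 1.68, Krt16 at 1.86 and Sprr2d at 2.40, whereas Sprr1a and Sprr1b were at -0.15 and -0.042. In granular-like cells 1 of 8 was 2-fold higher, Sprr1a at 1.11, and 2 were lower, Krt6a at -1.99 and Krt6b at -1.12 (against 1.46% of 8972 genes higher and 0.903% lower). With LNR 3 of 6 wound genes tested in spinous-like cells were 2-fold higher (against 0.139% of 10765 genes higher and 0.167% lower), namely Krt6a at 2.42, Krt6b at 4.56 and Krt16 at 3.38, and the median of the 6 was 1.56. A single LNR spinous-like cell of 28744 UMIs had 341 of Krt6a, 298 of Krt6b and 694 of Krt16. These ratios were not computed without it. In granular-like cells with LNR 0 of 7 were 2-fold higher and 1 was lower, Krt6a at -2.07 (against 0.345% of 9276 genes higher and 0.701% lower). In all keratinocyte-like cells with LNR, 2 of 7 antimicrobial genes were 2-fold higher, Defb4 at 3.12 and Defb14 at 1.66, together with Krt6b at 1.28 (1 of 8) and Mmp9 at 2.21 (1 of 2), and 0 of 12 inducers and 0 of 8 receptors, against 0.339% of genes higher and 0.205% lower.

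In neutrophil-like cells the granule gene Hp, haptoglobin, was 2-fold lower with SAR131675 at -1.02 (1 of 4), as was the cytokine Il36g at -1.02 (1 of 10), against 2.85% of 1718 genes lower and 2.21% higher, and 0 of 5 receptors were 2-fold apart. With LNR 0 of 4 granule genes, 0 of 10 inducers and 0 of 3 receptors were 2-fold apart. Tlr4, a receptor of calprotectin, was at 110, 105, 28.5 and 22.3 CPM in neutrophil-like cells. Over all kept cells 0 of 11 receptors were 2-fold apart in either pair. Il17a, which induces antimicrobial genes in epithelium, was at 2.75 and Il22, another such cytokine, at -1.34 with SAR131675 (1 and 1 of 17 inducers, against 1.02% of genes higher and 0.66% lower), and Il17f was at 1.37 with LNR (1 of 16, against 0.402% higher and 0.397% lower).

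Likeness of pattern was measured as Pearson's r of log2(CPM + 1) over 86 points, each a cell class in a library, which share 4 libraries and their depth. The points included the Camp/Ngp-led cluster, which was picked by alarmins among its leading genes. High r of an alarmin with genes of that cluster thus follows in part from the choice of the cluster. The genes outside the group most like S100a8 were Ifitm6 (r = 0.892), Nfe2 (0.881) and Trem3 (0.876), and those most like S100a9 were Trem3 (0.8997), Nfe2 (0.896) and Fpr2 (0.886). For Lcn2 they were Cd177 (0.843), Trem3 (0.805) and Mcemp1 (0.803), and for Slpi Hp (0.803), Mrgpra2b (0.792) and Trem1 (0.788). S100a8 and S100a9 had r = 0.972. Camp, Ngp and Ltf were most like genes of the granulocyte lineage. These were Cd177 (0.927), Chil3 (0.909) and Ly6a2 (0.903) for Camp, Cd177 (0.974), Ifitm6 (0.936) and Nfe2 (0.917) for Ngp, and Chil3 (0.940), Cd177 (0.940) and Ifitm6 (0.880) for Ltf. Saa3 was most like Inhba (0.699), Adipoq (0.590) and Csta2 (0.589), and Saa1 most like Gng13 (0.756), Fgf22 (0.735) and Sprr2b (0.732), and Saa1 had r = -0.145 with S100a8.

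One unnamed sham cluster had S100a8 and S100a9 in most cells, with S100a8 at a level near that of its library. It was led by Krt36 and Krt84 and held 384 sham and 6 LNR cells, with a median of 14416.5 UMIs in the sham library. Krt36 was at 165 CPM in the sham cells and 12547 CPM in the 6 LNR cells, which had 0 UMIs of S100a8, S100a9, Camp, Ngp and Ltf, and Scrublet marked 4 of the 384 sham cells. S100a8 was found in 289 of the 384 cells (75.3%), at 357 CPM against 336 CPM over all sham cells, with at most 77 UMIs in a cell. S100a9 was found in 72.7% of them, Slpi in 45.1%, Camp in 35.2%, Ngp in 32.0%, Lcn2 in 19.5%, Ltf in 8.85%, Saa1 in 2.60% and Saa3 in 0.260%, and Slpi stood at 126 CPM against 31.2 CPM over all sham cells. Per 100 UMIs of S100a8 it had 21.8 of Camp, 17.1 of Ngp, 2.02 of Ltf and 5.91 of Lcn2. The Camp/Ngp-led cluster of the sham library had 23.2, 17.0, 3.60 and 6.40, and the neutrophil-like class 0.0302, 0.231, 0 and 1.52. All kept sham cells together had 17.7, 11.9, 2.36 and 6.79, nearer to this cluster than the Camp/Ngp-led cluster was for Ltf. Of 25 marker lists, 18 were within 2-fold of the level of the whole library in this cluster, which held 4.11% of sham S100a8. Other unnamed immune clusters held 21.0% and 17.5% of S100a8 in the LNR and sham libraries. Scrublet marked 119 of 216 and 133 of 164 cells of the one with most S100a8 (7.82% and 6.56%). It marked 76 of 168 and 78 of 156 cells of the next (5.95% and 5.17%). In a cluster with 3.23% and 3.47% it marked 23 of 53 and 21 of 27 cells. In one with 1.997% and 1.27% it marked 42 of 102 and 80 of 122. Some clusters with few marked cells held little S100a8, such as 2 of 205 and 0 of 216 (0.00539% and 0.0118%). Another, with 1 of 135 and 3 of 75 marked, held 0.460% and 0.681%. Its level was 407 and 1058 CPM, above the 389 and 336 CPM of the 2 libraries. Some heavily marked clusters also held little S100a8. Scrublet marked 34 of 73 and 38 of 73 cells of an immune cluster with 0.365% and 0.0336%. It marked 223 of 261 and 264 of 304 cells of another unnamed cluster with 0.0881% and 0.0691%.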

How the data were processed

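Digits were dissociated and profiled by droplet single-cell RNA sequencing of transcript 3' ends. The deposited matrices hold unnormalized UMI counts of each gene in each barcode, which the authors obtained with Cell Ranger (6.1.2 per the labels, while 2 file headers name a later version) on GRCm39, with no barcode under 500 UMIs. Depth was 585284877 and 448276501 UMIs in the SAR131675 pair and 168507188 and 175998346 in the LNR pair, so low genes were measured less precisely in the latter.

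Cells were filtered as described, normalized per cell, and each pair was clustered alone by Leiden at resolution 0.7 on 30 principal components of 2000 variable genes, without the members and pathway genes (scanpy 1.11.5, igraph 0.11.9). Of 50 clusters in the SAR131675 pair 35 were named, and of 45 in the LNR pair 26, from marker lists by a score whose limits were set after seeing the clusters. The Camp/Ngp-led cluster was instead picked as an unnamed cluster with at least 3 alarmins among its 10 leading genes. Doublets were not removed in the main values. Scrublet, used as an alternative, marked 4.1% to 7.03% of cells, and in the control diet library, where its own threshold marked 0.00416%, the highest-scoring cells were used. UMIs were summed per class and library, and exact Poisson, binomial (Clopper-Pearson) and conditional intervals (95%) computed with Python 3.11.15, NumPy 2.4.6, pandas 2.3.3 and SciPy 1.17.1. With 1 library per group no test between groups was made, and 2-fold was the limit for genes with 50 or more UMIs in a pair. Recovery of known ratios was tested on simulated data. Figures used matplotlib 3.10.9.

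Named genes were the 9 members, 7 pathway lists and, for each member, the 3 genes of highest r among those with at least 200 UMIs. The members and all lists were chosen with earlier results of these data known. Alternatives were naming of single cells by markers, no upper limits on barcodes, resolution 0.4 and 1.2, removal of doublets, of cells with neutrophil markers or of the 5 highest cells, and thinning. Protein sequences were not used here.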

Additional observations from a re-analysis of the deposited data

Results flagged for a closer look

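Calprotectin and Lcn2 went opposite ways in keratinocyte-like cells as a whole and in neutrophil-like cells of the SAR131675 pair, and the difference between classes was not tested. The log2 ratio of SAR131675 over control diet was 4.67 for S100a8 in keratinocyte-like cells against -0.21 in neutrophil-like cells, 4.36 against -0.27 for S100a9 and 1.06 against -1.43 for Lcn2. Classes within the keratinocyte-like cells differed, with Lcn2 at -1.10 in follicle-like and S100a9 at -0.38 in granular-like cells. Lcn2 in neutrophil-like cells was at -0.79 without the 5 highest Lcn2 cells of each library, which took a control diet cell but no SAR131675 cell from the class.

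The barcodes above 5500 genes or 30000 UMIs, which were left out of the main values, held alarmins as well. In 6221 such barcodes of the SAR131675 library S100a8 was at 14.9 CPM [14.4, 15.4], S100a9 at 10.2 CPM [9.81, 10.6] and Saa3 at 2.29 CPM [2.10, 2.49]. In 4400 barcodes of the control diet library they were at 2.10, 2.59 and 0.162 CPM. Of 523 LNR and 513 sham barcodes above the limits, the LNR barcodes had Saa3 at 2.66 CPM [2.04, 3.42] against 0.220 CPM and Camp at 14.0 CPM [12.5, 15.6] against 5.11 CPM. These differences were not tested.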

How the results depend on the processing

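No paired analysis was possible because each group is 1 library and the labels give no replicate numbers. With 1 library per condition, intervals leave out variation between animals and cells named from RNA can hold more than 1 cell. Removing cells with a strict neutrophil marker was added after seeing the data, and the cause of each change below was not tested.

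The share of S100a8 in neutrophil-like cells moved under most alternatives. Naming single cells by markers gave 62.8% (SAR131675), 84.2% (control diet), 66.3% (LNR) and 58.1% (sham). Without upper limits on barcodes it was 24.1%, 33.1%, 45.5% and 44.0%, and at resolution 0.4 50.2% (LNR) and 48.5% (sham). Without Scrublet doublets it was 47.0%, 81.8%, 24.8% and 21.0%. Without cells outside the neutrophil-like class that held a strict neutrophil marker it was 51.5%, 92.7%, 92.01% and 76.2%, and with any marker 58.3%, 93.9%, 93.0% and 78.6%. Without the 5 highest cells it was 51.7%, 65.7%, 30.2% and 23.5%.

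The 5 highest cells' share of Camp without upper limits was 94.05% (SAR131675), 95.6% (control diet) and 47.1% (LNR). It was 12.9%, 37.2% and, in the sham library, 41.0% without doublets, 12.5%, 35.6%, 28% (LNR) and 66.1% (sham) without strict-marker cells and 14.3%, 40%, 29.6% and 72.9% without any-marker cells. Members at least 2-fold apart between LNR and sham numbered 2 without doublets, 4 without strict-marker and 5 without any-marker cells, and 1 between SAR131675 and control diet without the 5 highest cells. The share of all genes past 2-fold was not counted under these alternatives.

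Lcn2 in LEC-like cells was 197 (SAR131675) and 382 CPM (LNR) under marker naming, 211 without upper limits and 218 without doublets (control diet), and in the sham library 436 without doublets, 335 without strict-marker and 347 without any-marker cells. Thinned shares were 17.9%, 24.03%, 37.6% and 34.0%. Cells with 100 or more S100a8 UMIs held 0% of LNR keratinocyte-like S100a8 without strict-marker or any-marker cells, and 74.9% (SAR131675) and 43.1% (sham) without any-marker cells.

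Small LNR over sham ratios changed sign. Lcn2 in LEC-like cells became 0.042 without strict-marker and 0.022 without any-marker cells. In neutrophil-like cells Lcn2 became -0.34 under marker naming, -0.14 without upper limits and -0.15 at resolution 0.4, and S100a8 -0.32, -0.075 and -0.073. S100a8 in keratinocyte-like cells became -0.19, -0.89 without upper limits, -1.04 and -1.39. Of 276 values in all, 61 of the principal and 116 of the others stayed within their intervals or limits, 59 of the principal and 28 of the others moved beyond them, and 12 of the others changed sign.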
